A study of Mus musculus with 10 samples.

Results

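Tumours of a mouse ovarian cancer model treated with a CDK4/6 inhibitor together with an antibody against PD-1 were compared with tumours given PBS, the buffer control, over all genes measured by RNA sequencing. The 5 libraries compared, of 10 in the series, were chosen by their labels: 3 combination replicates and 2 PBS replicates. The other libraries were 3 from tumours given the inhibitor alone and 2 from tumours given the antibody alone, and they entered the fit as further groups. All 10 were labelled as wild-type ovarian cancer tissue. The treatment text of combination replicates 2 and 3 reads PD2 and PD3 antibody where that of replicate 1 reads PD1 antibody, and the replicates were grouped by their titles. The sources used here do not give the tumour cell line, the host strain, the ages, the doses or the times. Nor do they say that each library came from a separate mouse, and so a p-value reflects the spread among these libraries, which may be technical.

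CDK4 and CDK6, bound to D-type cyclins, phosphorylate the retinoblastoma protein and so release E2F factors that drive entry into S phase, and inhibitors of these kinases hold cells in G1. PD-1 is a receptor on activated T cells that dampens their signalling when it meets PD-L1 on tumour or myeloid cells, and antibodies that block it relieve this brake. Type I and type II interferons induce antiviral proteins, guanylate-binding GTPases and the machinery that presents peptides on MHC class I.

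Levels are given as RPKM, a read count divided by the length of the gene and the size of the library, which allows genes to be set beside each other per length. Differences are given on the log2(RPKM + 0.5) scale as combination minus PBS, each with its standard error (SE) from a limma fit of 4 group means, and they understate the differences of genes with low levels. The 5 libraries held from 25132208 to 36260856 reads. Keratins of the tumour epithelium and mesothelial markers were present in each of them, with Krt8 from 143 to 179 RPKM, Krt19 from 147 to 199 RPKM and Wt1 from 34 to 53.3 RPKM. Combination replicate 1 stood apart from the other combination replicates: its log2 levels correlated with theirs over genes at 0.892 and 0.902, against 0.975 between replicates 2 and 3 (Pearson's r across genes, which are not independent replicates).

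Reads of 14 skeletal muscle genes made up 10.3% of combination replicate 1, against 0.203% and 0.769% of the other combination replicates and 1.62% and 0.735% of the PBS replicates. Reads of 14 exocrine pancreas genes made up 0.473% of combination replicate 2 and 1.85% of replicate 3, against 0.0054% of replicate 1 and 0.00651% and 0.00545% of the PBS replicates. Reads of 14 liver genes made up 0.725% of PBS replicate 2 and 0.112% of PBS replicate 1, against at most 0.0275% of a combination replicate. PBS replicate 1 held the highest share of adipocyte reads, 0.413% against 0.0177% in PBS replicate 2 and at most 0.0435% in the combination replicates, and of erythroid reads, 0.0638% against 0.00182% and at most 0.0152%. The part of these tissues in the differences described here was not tested, and results that move with them are given with and without the libraries concerned.

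**Figure D1:**
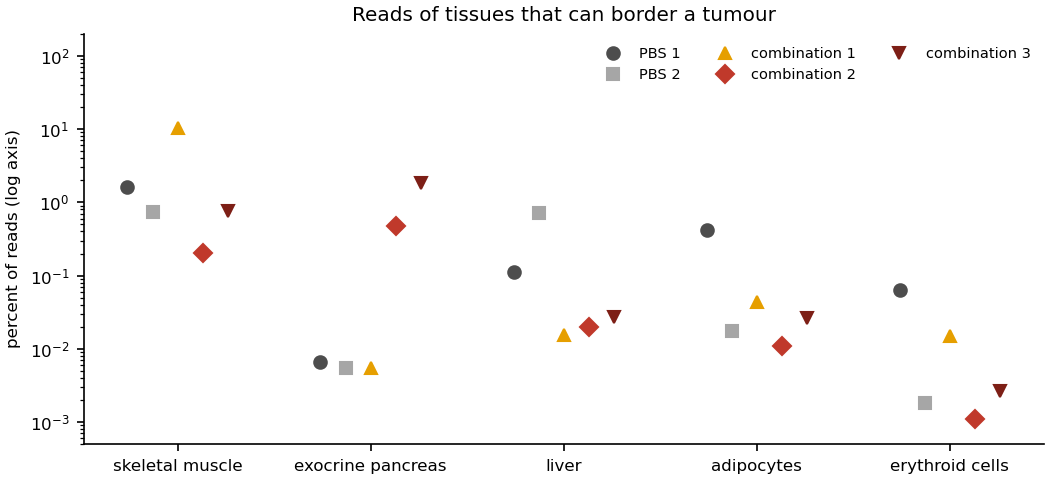
Percent of a library's reads (log axis) that fell in marker genes of 5 tissues that can border a tumour, in the 2 PBS and 3 combination libraries. Muscle reads are highest in combination 1 (10.3%), pancreas reads in combination 3 (1.85%), liver reads in PBS 2 (0.725%), and adipocyte and erythroid reads in PBS 1.

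No gene passed an adjusted p of 0.05 between the combination and PBS. Of the 32830 genes in the table, 19368 reached 0.5 RPKM in at least 2 libraries and were tested, and 0 of them (0.0%) were called by limma after Benjamini-Hochberg adjustment, the smallest adjusted p being 0.18. At an unadjusted p under 0.05 there were 686 genes (3.54%), 237 higher (1.22%) and 449 lower (2.32%), where 968.4 would be expected by chance alone. Limma with voom on whole reads recovered from the table likewise called 0 of 21143 genes (0.0%) and found 643 (3.04%) at an unadjusted p under 0.05. For a single gene, an exact permutation test of 3 against 2 libraries, with the p of a single side doubled, cannot go below p = 0.2.

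The difference was above 0 for 42.0% of the genes tested and below 0 for 58.0%, with a median of -0.05 on the log2 scale. In 862 genes (4.45%) every combination library lay above both PBS libraries, and in 2225 genes (11.5%) every combination library lay below both. Both counts were larger with any 1 of these libraries left out, as fewer libraries overlap less. Without combination replicate 1, 4355 genes (22.5%) lay above and 3475 (17.9%) lay below, and the median difference was 0.01. Without PBS replicate 1 the shares were 15.6% above and 31.0% below, and without PBS replicate 2 they were 19.3% and 31.9%. These counts without single libraries were added after the data were seen.

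**Figure D2:**
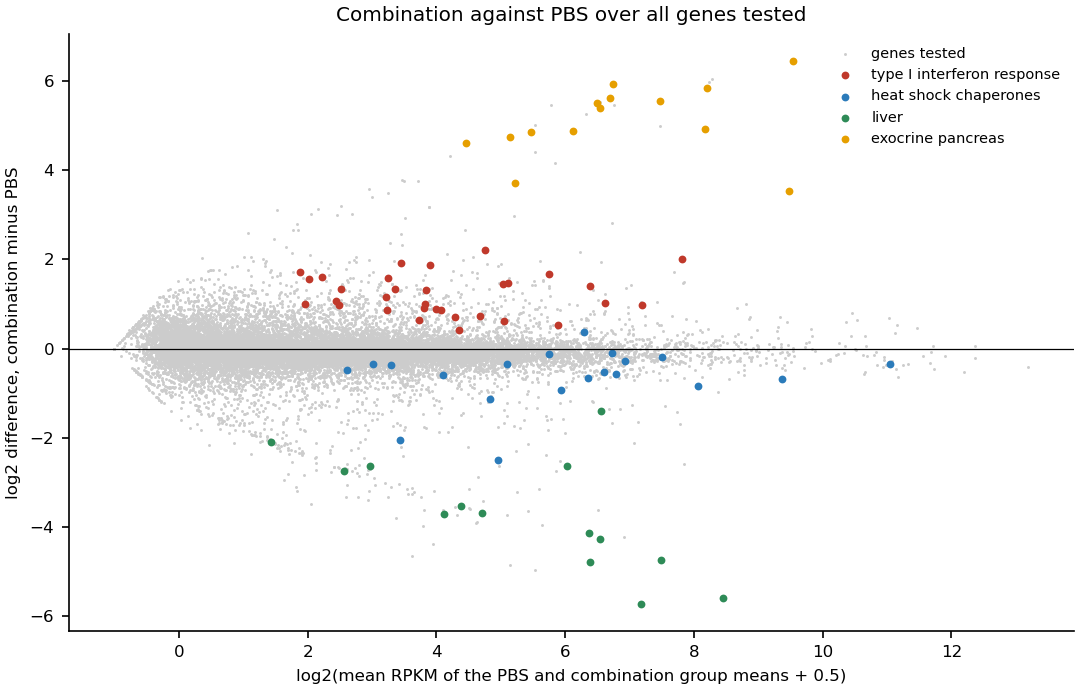
Log2 difference, combination minus PBS, of each of the 19368 genes tested against its mean level, with 4 lists coloured. The 32 type I interferon genes all lie above 0, heat shock chaperones lie below 0 but for 1, and liver and exocrine pancreas genes form the wings on either side.

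The 10 genes of lowest p in each direction did not pass adjustment and are given as the leading genes of the comparison. In each of these 20 genes the 3 combination libraries lay on 1 side of both PBS libraries. Ccl8, a chemokine that attracts monocytes and T cells (GRCm38 chromosome 11, 82115185 to 82116799), was at 11.1 and 9.26 RPKM in PBS and at 23.2, 45.3 and 39.4 RPKM in the combination. Its difference was 1.72 (SE 0.32, limma adjusted p = 0.619). Clic5, a chloride intracellular channel protein (chromosome 17, 44188572 to 44280168), was at 3.41 and 3.77 RPKM in PBS and at 6.78, 7.72 and 10.1 RPKM in the combination, a difference of 1.07 (SE 0.18, limma adjusted p = 0.601). Both genes were lowest in PBS and, within the combination, lowest in replicate 1.

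Among the other leading genes on the higher side were Bst2 and Rtp4, which interferon induces, and Lst1 and Lrmp, which are expressed in leukocytes. Bst2, also called tetherin, holds budding virus particles at the cell surface (chromosome 8, 71534255 to 71537456). It was at 33 and 57.1 RPKM in PBS and at 79, 154 and 130 RPKM in the combination, a difference of 1.41 (SE 0.38, unadjusted p = 0.00559, limma adjusted p = 1). Lst1 was at 7 and 12.5 RPKM in PBS and at 21.6, 36.1 and 35.6 RPKM in the combination, a difference of 1.64 (SE 0.39). In both genes combination replicate 1 lay between PBS and the other combination replicates. Rtp4 differed by 1.34 (SE 0.34), Lrmp by 1.12 (SE 0.30), F830016B08Rik by 1.42 (SE 0.37), Bst1, an ADP-ribosyl cyclase, by 1.11 (SE 0.29), Nectin4, a cell adhesion protein, by 1.14 (SE 0.30) and Ptpn18, a tyrosine phosphatase, by 0.86 (SE 0.19).

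The leading genes on the lower side encode enzymes and secreted proteins abundant in the liver. Aldh1l1, the formyltetrahydrofolate dehydrogenase of the folate cycle (chromosome 6, 90486427 to 90600203), was at 9.91 and 16.2 RPKM in PBS and at 1.44, 1.12 and 2.14 RPKM in the combination. Its difference of -2.70 (SE 0.29, limma adjusted p = 0.18) had the lowest p of all genes tested. Cat, the peroxisomal catalase (chromosome 2, 103453849 to 103485160), was at 74.4 and 60.2 RPKM in PBS and at 25.6, 25.4 and 28.4 RPKM in the combination, a difference of -1.32 (SE 0.18, limma adjusted p = 0.362). The 3 combination libraries lay close together in both genes.

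Apoc1, an apolipoprotein, was at 30.3 and 106 RPKM in PBS and at 1.09, 1.12 and 2.48 RPKM in the combination, a difference of -4.86 (SE 0.80). Ces1f, a carboxylesterase, was at 9.08 and 5.21 RPKM in PBS and at 0.206, 0.0181 and 0.285 RPKM in the combination, a difference of -3.49 (SE 0.47). Ces1f was higher in PBS replicate 1 and Apoc1 in PBS replicate 2, the library with more liver reads. The remaining 6 were Agt, the precursor of angiotensin, at -3.21 (SE 0.49), the peroxisomal fatty acid oxidation enzymes Ehhadh at -1.60 (SE 0.26) and Acaa1b at -3.10 (SE 0.55), Fah of tyrosine breakdown at -1.58 (SE 0.25), the asparaginase Aspg at -2.11 (SE 0.36) and Dpyd of pyrimidine breakdown at -1.90 (SE 0.33). Liver reads made up 0.112% and 0.725% of the PBS libraries and at most 0.0275% of a combination library, and their part in these differences was not tested.

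**Figure D3:**
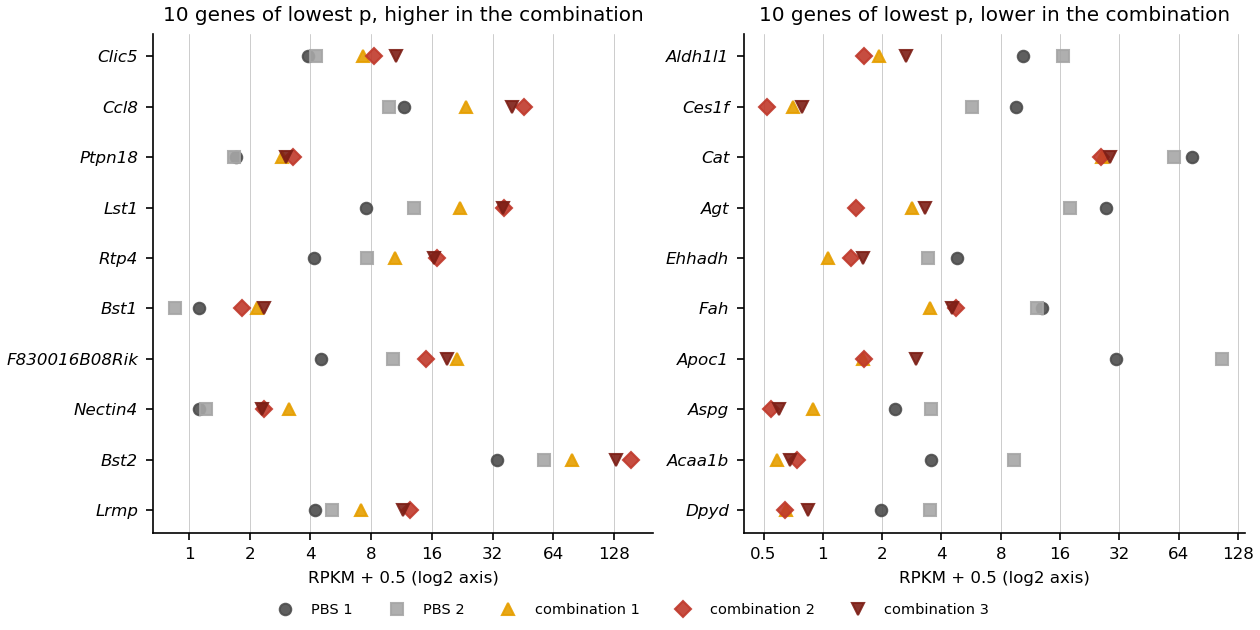
Level (RPKM + 0.5, log2 axis) of the 10 genes of lowest p on each side in the 2 PBS and 3 combination libraries. The combination libraries lie above both PBS libraries in the left panel and below both in the right panel, and combination 1 is the lowest of its group for Ccl8, Bst2 and Lst1.

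Transcripts of the type I interferon response stood higher in the combination. All 32 genes of the list had a difference above 0, with a median of 1.11, and in 14 of 32 the groups did not overlap, against 4.45% of all genes tested. In bulk tissue, fewer cells of a type and less RNA per cell cannot be told apart, and this holds for every list that follows. Irf7, a transcription factor that feeds back on interferon genes, was at 6.47 and 11.4 RPKM in PBS and at 24.7, 60.4 and 47.8 RPKM in the combination, a difference of 2.21 (SE 0.66, limma adjusted p = 1). Oas1a, a sensor that activates RNase L, was at 3.17 and 5.23 RPKM in PBS and at 8.62, 18.9 and 14 RPKM in the combination, a difference of 1.58 (SE 0.49). In both genes all combination libraries lay above PBS, replicate 1 least so.

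Of the other members, 2 more with groups apart are given here. Ifit3, which binds viral RNA together with its relatives, was at 59.7 and 96.5 RPKM in PBS and at 118, 571 and 423 RPKM in the combination, and its reads may be shared with the near-identical Ifit3b. Isg15, a ubiquitin-like modifier, was at 13.8 and 20.2 RPKM in PBS and at 27.6, 76.6 and 50.1 RPKM in the combination. In the remaining 18 of 32 genes the groups overlapped, and in Oasl2 (41 and 51.8 RPKM in PBS, 39.6 RPKM in combination replicate 1), Isg20 and Sp100 combination replicate 1 lay below both PBS libraries. Without combination replicate 1 the median of the list was 1.59 and 32 of 32 genes lay above both PBS libraries, where 22.5% of all genes did so. Without PBS replicate 1 the median was 0.79 and 15 of 32 stood apart, against 15.6% of all genes. Without PBS replicate 2 the median was 1.47 and 28 of 32 stood apart, against 19.3%.

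The promoters of several of these genes carry the interferon-stimulated response element, to which interferon regulatory factors bind. The windows shown are those of 4 genes among the leading members of the interferon and antigen presentation lists, from 250 bases before to 50 bases after the gene's start, from RefSeq on GRCm38.p6, 5′ to 3′ on the gene's strand. Capitals mark matches, on either strand, to 2 copies of GAAA separated by any 2 bases, and 2 matches that overlap run on as 1 block. The windows lie at chr8:71537423-71537722 on the minus strand (Bst2), chr5:120907476-120907775 on the minus strand (Oas1a), chr3:142559794-142560093 on the plus strand (Gbp3) and chr17:36032652-36032951 on the minus strand (H2-T23).
Bst2: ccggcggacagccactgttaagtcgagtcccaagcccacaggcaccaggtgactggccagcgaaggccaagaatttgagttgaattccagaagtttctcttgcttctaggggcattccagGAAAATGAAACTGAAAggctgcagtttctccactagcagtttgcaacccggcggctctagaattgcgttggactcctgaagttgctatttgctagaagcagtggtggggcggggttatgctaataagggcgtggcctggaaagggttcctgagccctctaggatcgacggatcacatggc
Oas1a: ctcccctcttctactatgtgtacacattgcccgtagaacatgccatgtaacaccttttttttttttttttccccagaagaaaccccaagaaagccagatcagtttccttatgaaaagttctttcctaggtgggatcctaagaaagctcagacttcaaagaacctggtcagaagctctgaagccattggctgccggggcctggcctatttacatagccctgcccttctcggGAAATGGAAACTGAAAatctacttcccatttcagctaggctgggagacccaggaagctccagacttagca
Gbp3: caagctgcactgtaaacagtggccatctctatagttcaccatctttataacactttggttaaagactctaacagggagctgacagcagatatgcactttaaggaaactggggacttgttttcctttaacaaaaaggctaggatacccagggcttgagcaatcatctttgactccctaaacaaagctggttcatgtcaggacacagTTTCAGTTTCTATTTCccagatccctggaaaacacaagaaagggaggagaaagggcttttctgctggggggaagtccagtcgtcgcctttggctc
H2-T23: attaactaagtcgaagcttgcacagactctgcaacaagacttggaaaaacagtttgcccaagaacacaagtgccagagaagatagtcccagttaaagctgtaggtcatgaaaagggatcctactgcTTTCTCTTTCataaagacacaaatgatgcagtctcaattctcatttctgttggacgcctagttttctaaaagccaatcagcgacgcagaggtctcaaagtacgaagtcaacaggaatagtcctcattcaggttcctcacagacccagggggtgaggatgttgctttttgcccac

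The pair of matches began 130 and 124 bases before the start in Bst2, 20 and 14 bases before it in Oas1a, and 45 and 39 bases before it in Gbp3, and the single match of H2-T23 began 124 bases before it. Of the type I interferon list 25 genes had a window, and 13 of them (52%) held a match, as did 9 of 10 windows (90%) of the interferon-inducible GTPases and 5 of 17 (29.4%) of the MHC class I list. Among all genes tested with a window the share was 3.95%, 447 of 11325. These lists hold genes known as interferon targets, so the shares describe the lists and not the libraries. The windows of Irf7 and Ccl8 held no match to these letters, and Rtp4 is named without a sequence.

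Sensors of foreign or displaced nucleic acids were less even. Of the 14 genes tested 12 had a difference above 0, with a median of 0.60. The groups did not overlap in 3 on the higher side and in 1 on the lower side, against 4.45% and 11.5% of all genes tested. Zbp1, which senses Z-form nucleic acids, was at 4.39 and 12.7 RPKM in PBS and at 14.3, 49.2 and 49.9 RPKM in the combination, a difference of 2.05 (SE 0.73). Dhx58, a regulator of RIG-I-like receptors, differed by 1.78 (SE 0.65), and Tmem173, the adaptor STING, by 0.55 (SE 0.27). Combination replicate 1 was the lowest of its group in all of these. Irf3, the factor these sensors activate, was on the lower side, at 16.9 and 16.6 RPKM in PBS and at 11.3, 15.3 and 13.7 RPKM in the combination, a difference of -0.32 (SE 0.18).

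All 17 interferon-inducible GTPases, which attack vacuoles of intracellular microbes, had a difference above 0, with a median of 1.36, and 4 of 17 did not overlap (4.45% of all genes tested). Gbp3 was at 90.6 and 138 RPKM in PBS and at 165, 422 and 433 RPKM in the combination, a difference of 1.47 (SE 0.47). Gbp10 was at 13.1 and 38.4 RPKM in PBS and at 41.4, 146 and 182 RPKM in the combination, a difference of 2.17 (SE 0.75). Gbp4 differed by 1.5 (SE 0.56), and Iigp1 by 1.36 (SE 0.50) with groups that overlapped through combination replicate 1. Without that replicate the median was 1.93 and 17 of 17 lay above PBS, where 22.5% of all genes did so. Without PBS replicate 1 the median was 0.76 and 4 of 17 stood apart, against 15.6% of all genes. Without PBS replicate 2 the median was 1.84 and 17 of 17 stood apart, against 19.3%.

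The MHC class I presentation list stood higher in combination replicates 2 and 3. Their mean log2 levels were 6.66 and 6.67, against 5.49 and 5.71 in PBS, and combination replicate 1 was level with PBS replicate 2 at 5.71. All 19 genes had a difference above 0, with a median of 0.79, and 11 of 19 did not overlap, against 4.45% of all genes tested. H2-T23, which encodes Qa-1, was at 52.8 and 59.2 RPKM in PBS and at 74.3, 153 and 150 RPKM in the combination, a difference of 1.09 (SE 0.37). The shared light chain B2m was at 340 and 352 RPKM in PBS and at 368, 733 and 680 RPKM in the combination, a difference of 0.71 (SE 0.31). In both genes combination replicate 1 lay nearer to PBS than to the other combination replicates.

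Tap1, which pumps peptides into the endoplasmic reticulum, was at 11.2 and 15 RPKM in PBS and at 15.6, 33.8 and 36 RPKM in the combination. The subunits of the immunoproteasome Psmb8 and Psmb10 differed by 0.89 (SE 0.34) and 0.79 (SE 0.32), and H2-T22 by 0.94 (SE 0.36). Class I genes are near-identical copies, so reads may have been split between them. The median was 1.09 without combination replicate 1, 0.69 without PBS replicate 1 and 0.97 without PBS replicate 2.

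Genes of MHC class II presentation, which dendritic cells, macrophages and B cells use to show peptides to helper T cells, were also all above 0 (12 of 12, median 0.70), and 2 of 12 did not overlap (4.45% of all genes tested). H2-DMb2, of the peptide-loading complex, was at 9.17 and 14.5 RPKM in PBS and at 18.3, 36.6 and 31.8 RPKM in the combination, a difference of 1.23 (SE 0.39). H2-Ab1 was at 991 and 1288 RPKM in PBS and at 1253, 2068 and 2140 RPKM in the combination, with combination replicate 1 between the PBS libraries. H2-Eb2 differed by 1.17 (SE 0.50) and H2-DMb1 by 0.43 (SE 0.23), both with overlapping groups.

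T cell transcripts were higher in combination replicates 2 and 3 and near the PBS level in replicate 1. All 20 genes had a difference above 0, with a median of 0.98, but in 18 of them the groups overlapped. The other 2 lay above both PBS libraries in every combination library, where 4.45% of all genes tested did so. Cd8a, the co-receptor of cytotoxic T cells (chromosome 6, 71373427 to 71379173), was at 0.722 and 0.69 RPKM in PBS and at 1.02, 4.26 and 6.79 RPKM in the combination, a difference of 1.64 (SE 0.60, unadjusted p = 0.025, limma adjusted p = 1). Cd8b1 was at 1.23 and 1.36 RPKM in PBS and at 1.85, 8.77 and 13.1 RPKM in the combination, a difference of 1.89 (SE 0.71). Without combination replicate 1 the median of the list was 1.82 and 20 of 20 genes lay above both PBS libraries, where 22.5% of all genes did so. Without PBS replicate 1 the median was 0.78 and 3 of 20 genes stood apart, near the 15.6% of all genes. Without PBS replicate 2 the median was 1.33 and 10 of 20 stood apart, against 19.3% of all genes.

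The T cell receptor chains Cd3d and Cd3g differed by 1.31 (SE 0.54) and 1.49 (SE 0.62), with combination replicate 1 inside the PBS range for each. Cd4, the co-receptor of helper T cells, was at 1.75 and 5.61 RPKM in PBS and at 1.12, 13.3 and 14.4 RPKM in the combination, so replicate 1 was the lowest of the 5 libraries. Foxp3, the factor of regulatory T cells, was at 3.05 and 3.34 RPKM in PBS and at 2.73, 6.22 and 5.08 RPKM in the combination, with replicate 1 again lowest. Of the 10 regulatory T cell genes 9 were above 0, with a median of 0.46. In this short list 0 of 10 stood apart, near the 4.45% of all genes tested on the higher side.

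Cytotoxic effector genes also stood higher in combination replicates 2 and 3. All 13 genes tested had a difference above 0, with a median of 0.95, and 6 of 13 did not overlap, against 4.45% of all genes tested. Prf1, the pore-forming perforin, was at 0.232 and 0.435 RPKM in PBS and at 0.757, 3.66 and 6.46 RPKM in the combination, a difference of 2.00 (SE 0.82). Gzmb, a granule protease, was at 0.505 and 0.488 RPKM in PBS and at 0.524, 4.24 and 6.81 RPKM in the combination. Combination replicate 1 was above PBS by a narrow margin in Gzmb and by a wider one in Prf1. Tbx21, the factor T-bet, differed by 0.77 (SE 0.35), Klrd1, the receptor CD94, by 1.21 (SE 0.56) and Gzmk by 0.95 (SE 0.45), and Gzma and Gzmc fell under the filter.

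Of the checkpoint genes 14 of 16 were above 0, with a median of 0.69, and in 0 of 16 did the groups stand apart. Over all genes tested 4.45% stood apart on the higher side, so in a list this short a 0 tells little. Pdcd1, the gene of PD-1, was at 1.32 and 2.99 RPKM in PBS and at 1.65, 9.83 and 13.6 RPKM in the combination, a difference of 1.43 (SE 0.90, limma adjusted p = 1). Cd274, the gene of its ligand PD-L1, was at 4.83 and 14.9 RPKM in PBS and at 8.28, 48.4 and 59.5 RPKM in the combination, a difference of 1.71 (SE 1.25, limma adjusted p = 1). For both, combination replicate 1 lay between the PBS libraries and replicates 2 and 3 lay above them.

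Of 9 chemokines linked to lymphoid structures 8 were above 0, with a median of 1.44, and 5 of 9 did not overlap, against 4.45% of all genes tested. Besides Ccl8, Ccl5, which draws T cells, was at 1.66 and 1.98 RPKM in PBS and at 2.46, 20.3 and 27.1 RPKM in the combination. Cxcl10, a ligand of CXCR3, was at 1.94 and 2.71 RPKM in PBS and at 2.82, 10.4 and 11.7 RPKM in the combination, a difference of 1.44 (SE 0.68). Both stood just above PBS in combination replicate 1 and well above it in the other replicates. Cxcl9, a second CXCR3 ligand, was at 8.94 and 38.4 RPKM in PBS and at 19.8, 88.2 and 91.6 RPKM in the combination, so its groups overlapped.

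The homeostatic chemokines that organise lymphoid tissue did not share this pattern. Cxcl13, which guides B cells into follicles, was at 7.06 and 2.81 RPKM in PBS and at 3.41, 3.47 and 6.81 RPKM in the combination, a difference of -0.05 (SE 1.30) whose sign turned under median-ratio and quantile scaling. Ccl21a, which guides T cells and dendritic cells, was at 3.84 and 14 RPKM in PBS and at 10.6, 8.82 and 24.8 RPKM in the combination, a difference of 0.80 that turned without PBS replicate 1. Ccl19 was at most 0.618 RPKM and fell under the filter. These genes overlapped between the groups. Of 19 further genes of lymphoid organisation 17 were above 0, with a median of 0.58. In 2 of 19, Lta and Tnfsf14, the groups stood apart on the higher side, against 4.45% of all genes tested. Lta, the cytokine lymphotoxin alpha, was at 0.0575 and 0.209 RPKM in PBS and at 0.342, 1.03 and 0.678 RPKM in the combination. Tnfsf14, called LIGHT, differed by 0.75 (SE 0.33).

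B cell genes were above 0 in 13 of 16 cases, with a median of 0.57. That median was 1.23 without combination replicate 1, 0.33 without PBS replicate 1 and 0.76 without PBS replicate 2. In this list 0 of 16 stood apart, near the 4.45% of all genes tested on the higher side. Ms4a1, the gene of CD20, was at 0.141 and 0.485 RPKM in PBS and at 0.0109, 1.87 and 0.972 RPKM in the combination. Replicate 1 was the lowest and replicates 2 and 3 the highest of the 5 libraries. Plasma cell genes had 5 of 17 above 0 and a median of -0.27. Of these 17 genes 2, Sdc1 and Iglc2, stood apart on the lower side, near the 11.5% of all genes tested.

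Macrophage genes were mixed. Of 19 genes 12 were above 0, with a median of 0.48. On the higher side 3 stood apart and on the lower side 1, against 4.45% and 11.5% of all genes tested. Fcgr1, a high-affinity IgG receptor, was at 3.61 and 4.34 RPKM in PBS and at 6.81, 8.88 and 10.1 RPKM in the combination, a difference of 1.01 (SE 0.38), and Cd68 and Spp1 stood apart in the same direction. Gata6, the factor of resident peritoneal macrophages that is also expressed in other tissues, was at 19.5 and 14.5 RPKM in PBS and at 11.9, 13.8 and 12 RPKM in the combination, a difference of -0.41 (SE 0.18).

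**Figure D4:**
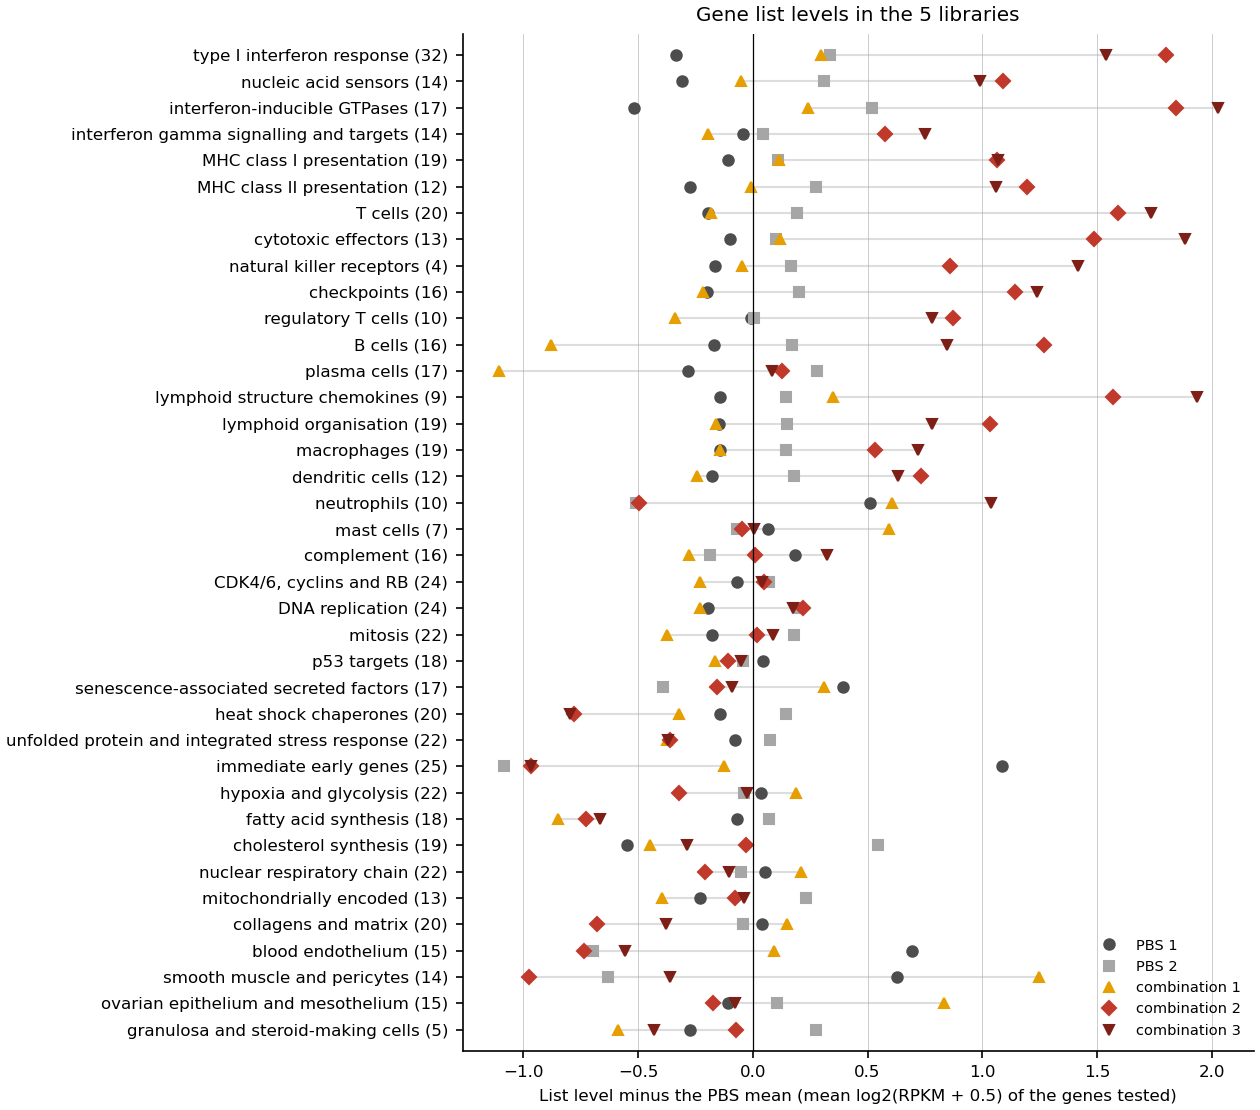
Level of each gene list (mean log2(RPKM + 0.5) of the genes tested, with their number in brackets) minus the PBS mean, in the 2 PBS and 3 combination libraries. For interferon, GTPase, MHC and T cell lists combination 2 and 3 lie to the right of both PBS libraries and combination 1 lies nearer to PBS, and for heat shock chaperones and fatty acid synthesis all combination libraries lie to the left of the PBS libraries.

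Genes of the pathway that the inhibitor targets had small differences in both directions. Of 24 genes of the CDK4/6, cyclin and retinoblastoma list 9 were above 0, with a median of -0.13. The groups stood apart in 2 of 24, both lower: the inhibitor gene Cdkn1b and E2f4. This share was no higher than the 11.5% of all genes tested that stood apart on that side. Cdk4 was at 19.8 and 15.2 RPKM in PBS and at 17.4, 15.6 and 13.8 RPKM in the combination, a difference of -0.16 (SE 0.22). Ccnd1, the gene of cyclin D1, was at 13.8 and 25.2 RPKM in PBS and at 14.9, 26.1 and 26.9 RPKM in the combination, a difference of 0.22 (SE 0.33). Cdk6 differed by -0.03 (SE 0.32), Rb1 by 0.07 (SE 0.33) and Cdkn1a, the gene of p21, by -0.19 (SE 0.47), each with overlapping groups. The signs of all 5 genes turned when 1 library was left out.

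Proliferation genes gave no common direction. Mki67, a marker of cycling cells, was at 43.5 and 63.3 RPKM in PBS and at 33, 51 and 51 RPKM in the combination, a difference of -0.25 (SE 0.26, limma adjusted p = 1) whose sign turned without PBS replicate 2. Of 24 DNA replication genes 17 were above 0, with a median of 0.05, and of 22 mitosis genes 5 were above 0, with a median of -0.11. The p53 targets had 7 of 18 above 0, with a median of -0.05. Secreted factors linked to senescence had 8 of 17 above 0, with a median of -0.19 that was 0.38 without PBS replicate 1.

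Fatty acid synthesis genes stood lower in the combination. Of 18 genes 16 had a difference below 0, with a median of -0.46, and 7 of 18 did not overlap, against 11.5% of all genes tested on that side. Scd1, a desaturase of long-chain fatty acids (chromosome 19, 44394451 to 44407709), was at 97.7 and 104 RPKM in PBS and at 11.3, 16 and 16.8 RPKM in the combination, a difference of -2.76 (SE 0.63, unadjusted p = 0.00212, limma adjusted p = 1). Thrsp, a regulator of lipogenesis, was at 49 and 21.4 RPKM in PBS and at 4.17, 0.815 and 3.15 RPKM in the combination, a difference of -3.55 (SE 0.87). All combination libraries lay far below PBS in both genes.

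Mlxipl, the glucose-sensing factor ChREBP, was at 10.1 and 11.2 RPKM in PBS and at 5.91, 5.28 and 5.06 RPKM in the combination, a difference of -0.91 (SE 0.19). Fasn, the fatty acid synthase, was at 20.6 and 11.1 RPKM in PBS and at 6.48, 8.99 and 7.99 RPKM in the combination, a difference of -0.92 (SE 0.31). Both genes are also expressed in liver and fat. Liver reads were more abundant in both PBS libraries (0.112% and 0.725%), and fat reads in PBS replicate 1 (0.413%, against 0.0177% in PBS replicate 2). The part of those tissues was not tested, for these genes or for Scd1 and Thrsp. The median of the list was -0.56 without PBS replicate 1 and -0.26 without PBS replicate 2.

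In cholesterol synthesis 15 of 19 genes were below 0, with a median of -0.28, where 58.0% of all genes tested were below 0. In 3 of 19 the groups stood apart, near the 11.5% of all genes, among them Cyp51 at -0.64 (SE 0.23) and Fdft1 at -0.39 (SE 0.16). The direction rested on PBS replicate 2, without which the median was 0.39. Sc5d, for example, was at 4.01 and 11.7 RPKM in PBS and at 3.83, 4.48 and 4 RPKM in the combination, and Insig1, which retains the sterol sensor, at 4 and 9.65 RPKM and at 3.65, 5.79 and 3.64 RPKM. In both genes PBS replicate 2 was high and PBS replicate 1 was within or near the combination range.

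Heat shock chaperones, which fold proteins in the cytosol, were on the lower side. Of 20 genes 19 were below 0, with a median of -0.50, and 8 of 20 did not overlap, against 11.5% of all genes tested. Dnaja1, a co-chaperone of HSP70, was at 64.5 and 95.9 RPKM in PBS and at 42.1, 40.7 and 40.9 RPKM in the combination, a difference of -0.92 (SE 0.20, unadjusted p = 0.00153, limma adjusted p = 0.952). Hspa8, the constitutive HSP70, was at 672 and 973 RPKM in PBS and at 531, 496 and 477 RPKM in the combination, a difference of -0.69 (SE 0.21). The combination libraries were close to each other in both genes and below both PBS libraries.

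Hsp90aa1, a stress-induced HSP90, was at 228 and 468 RPKM in PBS and at 148, 202 and 206 RPKM in the combination, a difference of -0.83 (SE 0.35). Hspa1b, a stress-induced HSP70 with a near-identical copy in Hspa1a, was at 77.7 and 21.3 RPKM in PBS and at 27.5, 3.46 and 2.93 RPKM in the combination, and its groups overlapped through combination replicate 1. The median of the list was -0.51 without combination replicate 1, -0.90 without PBS replicate 1 and -0.22 without PBS replicate 2. The heat shock element, searched on either strand as GAA, TTC and GAA with any 2 bases after each of the first 2 blocks, was held by 4 of 16 windows (25%) of this list and by 0.565% of all genes tested with a window. The windows of Dnaja1 and Hspa1b held no match to these letters, and Hspa8 and Hsp90aa1 are named without a window.

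Chaperones of the endoplasmic reticulum followed the same direction. Of 22 genes of the unfolded protein and integrated stress response 19 were below 0, with a median of -0.43, and 6 of 22 did not overlap, against 11.5% of all genes tested. Dnajb9, a co-chaperone of BiP, was at 16.3 and 23 RPKM in PBS and at 10.6, 10.5 and 11.6 RPKM in the combination, a difference of -0.80 (SE 0.19). Herpud1, of protein degradation at the reticulum, was at 17 and 31.7 RPKM in PBS and at 15.3, 12.6 and 14.3 RPKM in the combination, a difference of -0.71 (SE 0.24). Both were highest in PBS replicate 2. Hsp90b1 and Pdia4 differed by -0.45 (SE 0.22) and -0.47 (SE 0.23), and without PBS replicate 2 the median of the list was -0.13.

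Immediate early genes, which respond rapidly to stimuli, were below 0 in 24 of 25 cases, with a median of -0.70. Only 1 of 25 stood apart on the lower side, where 11.5% of all genes tested did so. Fos was at 136 and 2.84 RPKM in PBS and at 29.9, 2.71 and 3.11 RPKM in the combination. The direction came from PBS replicate 1, without which the median of the list was 0.32.

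Matrix genes were on the lower side in 19 of 20 cases, with a median of -0.33, and 5 of 20 did not overlap, where 58.0% of all genes tested were below 0 and 11.5% did not overlap on that side. Fn1, the gene of fibronectin, was at 63.5 and 69.9 RPKM in PBS and at 40.8, 29.8 and 45.2 RPKM in the combination, a difference of -0.80 (SE 0.32). Col4a1, of basement membranes, was at 109 and 94.6 RPKM in PBS and at 82.6, 59.6 and 72.8 RPKM in the combination, a difference of -0.51 (SE 0.37). All combination libraries lay below PBS in both. Sparc and Col15a1 differed by -0.33 (SE 0.23) and -0.36 (SE 0.24).

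Of 15 blood endothelium genes 14 were below 0, with a median of -0.34 that was 0.26 without PBS replicate 1. Kdr, the main receptor for VEGF-A, kept its direction, at 11.3 and 7.59 RPKM in PBS and at 5.71, 6.31 and 6.74 RPKM in the combination, a difference of -0.53 (SE 0.21) that was -0.26 without PBS replicate 1. Cdh5, of endothelial junctions, was at 23.7 and 5.78 RPKM in PBS and at 11.7, 4.88 and 5.94 RPKM in the combination. Its groups overlapped and its sign turned without PBS replicate 1.

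Marker lists of the liver, the exocrine pancreas and fat had wide differences that moved with 1 or 2 libraries. All 14 liver genes were below 0, with a median of -3.70 that was -0.31 without PBS replicate 2. Alb, the gene of albumin, was at 0.816 and 1395 RPKM in PBS and at 0.115, 0.533 and 0.589 RPKM in the combination. Cyp2e1 differed in that both PBS libraries were high, at 252 and 70.6 RPKM, against 5.69, 1.82 and 7.48 RPKM in the combination.

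All 14 exocrine pancreas genes were above 0, with a median of 5.17, and 1 of 14 stood apart (4.45% of all genes tested on the higher side). Prss2, the gene of a trypsinogen, was at 0.683 and 0.354 RPKM in PBS and at 0.0415, 230 and 834 RPKM in the combination, so replicate 1 was the lowest of the 5 libraries. The antibody libraries held more, with 12.5% and 5.15% of reads in the list. All 12 adipocyte genes were below 0, with a median of -1.59 that was 0.10 without PBS replicate 1, and the skeletal muscle list had a median of 0.08 that was -1.48 without combination replicate 1.

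The libraries of the single agents show whether the combination stood where either agent alone did. The type I interferon list had a median of 0.11 for the inhibitor minus PBS and -0.03 for the antibody minus PBS, both of which share the PBS libraries with the combination. Its mean log2 level was 2.93 and 3.60 in PBS, 2.88, 3.05 and 4.41 with the inhibitor, 3.32 and 3.08 with the antibody, and 3.56, 5.07 and 4.80 with the combination. Inhibitor replicate 3 thus lay above combination replicate 1 and below replicates 2 and 3. Combination replicate 1 itself lay between the PBS libraries by this mean. The T cell list had a median of -0.34 with the inhibitor and 1.06 with the antibody, beside 0.98 with the combination. Of the leading genes on the higher side, Ptpn18 and Nectin4 averaged 2.57 and 2.09 RPKM in the combination. With the antibody alone they averaged 2.45 and 1.92 RPKM. The other leading genes on that side had a combination mean further above the antibody mean.

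Each of the leading genes on the lower side, and Scd1, lay below both PBS libraries in every single-agent library too. They thus set PBS apart from all treated groups and not from the combination alone. Aldh1l1 was at 1.73, 1.07 and 1.42 RPKM with the inhibitor and at 3.53 and 4.02 RPKM with the antibody, and Scd1 was at 24.5, 8.36 and 30.2 RPKM and at 10.9 and 42.1 RPKM, all below both PBS libraries. The median of the fatty acid synthesis list was -0.62 for each agent alone. Heat shock chaperones had a median of -0.21 with the inhibitor and -0.48 with the antibody. In 3 other lists on the lower side the median was below 0 with only 1 of the agents. The unfolded protein response had a median of -0.18 with the inhibitor and 0.03 with the antibody, and matrix genes -0.12 and 0.07. Immediate early genes had 0.14 with the inhibitor and -0.98 with the antibody.

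**Figure D5:**
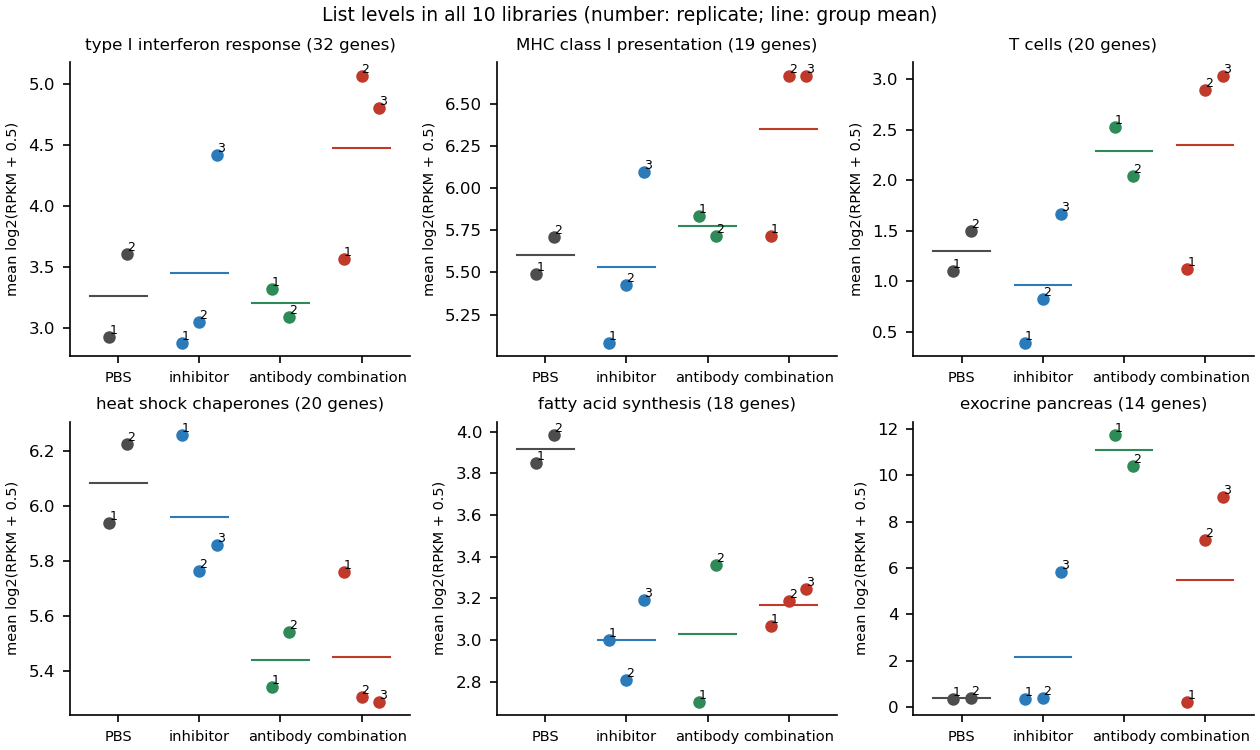
Mean log2(RPKM + 0.5) of 6 gene lists in all 10 libraries, with points numbered by replicate and a line at each group mean. Type I interferon levels are highest in combination 2 and 3 (5.07 and 4.80), T cell levels are also higher in the antibody libraries than in PBS, and fatty acid synthesis levels are highest in the 2 PBS libraries (3.85 and 3.98).

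A contrast of the combination with the sum of the single-agent differences (combination minus inhibitor minus antibody plus PBS) called 0 genes (0.0%), with a smallest limma adjusted p of 0.777. At an unadjusted p under 0.05 it held 1089 genes (5.62%), 962 above 0 (4.97%) and 127 below 0 (0.656%). The median of all genes tested was 0.33 in this contrast and 0.02 under median-ratio scaling, so values are to be read against that shift. The type I interferon list had a median of 1.08 (0.77 under median-ratio scaling) and the MHC class I list one of 0.65 (0.28).

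By the lowest p, 3 genes above the sum were Cat at 1.47 (SE 0.26), Kdr at 1.49 (SE 0.29) and Dtx1, a regulator of Notch signalling, at 1.35 (SE 0.29). Dtx1 was at 7.9 and 6.98 RPKM in PBS, at 4.37, 6.68 and 6.07 RPKM with the inhibitor, at 5.01 and 4 RPKM with the antibody, and at 8.79, 10.1 and 9.13 RPKM with the combination. It was lower than PBS with each agent alone and higher than PBS with both. Cat was at 21.4, 20.4 and 22.7 RPKM with the inhibitor and at 24.6 and 35.1 RPKM with the antibody, so each single agent and the combination lay below PBS by a like amount.

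On the other side stood Klk1b11, Klk1b4 and Nucb2. Klk1b11, a kallikrein of a family of near-identical copies, was listed at 0 in both PBS libraries, at 9.19 and 7.38 RPKM with the antibody and at 0.157, 0.483 and 0.927 RPKM with the combination. Nucb2, a calcium-binding secretory protein, was at 40.6 and 34.2 RPKM in PBS, at 167 and 102 RPKM with the antibody and at 35.3, 37.1 and 51.6 RPKM with the combination. The antibody libraries were also those with 12.5% and 5.15% of reads in exocrine pancreas genes, and the part of that tissue was not tested.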

How the data were processed

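Stranded libraries of tumour mRNA were sequenced from both ends, per the labels' protocols, and these name 2 kits with no word on which served which sample. The authors deposited 1 table of RPKM values for 32830 genes in 10 libraries, with genome build GRCm38 (mm10) per the submitters' processing notes. Not given in the sources used here were the aligner, the counter and the use of strand in counting. Antisense, overlapping and near-identical genes are therefore uncertain. Every RPKM value times gene length was a whole multiple of 1 read (tolerance 1e-06, 100% of values), which gave reads per library. Intervals and depths cover counting error only.

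Genes at 0.5 RPKM or more in 2 or more libraries were tested with limma (3.58.1, R 4.3.3) on log2(RPKM + 0.5). The fit had 4 group means, all 10 libraries, mean-variance trend, robust moderation and Benjamini-Hochberg adjustment at 0.05. A check on simulated reads covered the code only. Those reads had a fixed spread and no outlying library or tissue, so they say nothing of error rates here. Gene lists were given no test, only counts and medians beside all genes. Members and lists were chosen with earlier results of these data known. The genes named are the 10 protein-coding genes of lowest p per direction (3 per direction for the sum contrast), with at least 1 RPKM in the higher group, up to 4 of lowest p in each list described, and 20 fixed genes, 1 of which is not reported here. Others named from the lists, Slfn4 with its relatives, and Reg3b, were chosen after their values were seen. Alternatives changed the pseudocount, filter, scaling, variance model, samples, replicate block and test. Promoter windows came from RefSeq on GRCm38.p6, and figures were drawn with matplotlib 3.10.9.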

Additional observations from a re-analysis of the deposited data

How the results depend on the processing

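No gene was called between the combination and PBS under other pseudocounts, a filter at 1 RPKM, median-ratio or quantile scaling, plain moderation, the 5 libraries alone or voom. Without a filter on low values 7 genes were called, all lower. Leaving out 1 replicate gave 0 to 94 calls, all 94 lower and without PBS replicate 1, and 83 of those 94 genes were at least 10 times as high in PBS replicate 2 as in PBS replicate 1. Without that replicate PBS is 1 library, assumed to vary like the other groups. Without inhibitor replicate 3 the count was 1 (Slfn4), and without the 3 muscle-rich libraries it was 1 (Reg3b). The sum contrast called 0 genes in every alternative but the last, where it called 3, and 0 to 0 with 1 replicate left out. The cause of these shifts was not tested.

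Of 2281 values of 109 named genes under 21 alternatives 2257 kept their direction and 24, of 11 genes, reversed. Many of the combination minus PBS values could not move. They are differences of group means, which the libraries of the other groups, the filter and the moderation do not enter. For them, leaving out the muscle-rich libraries equals leaving out combination replicate 1. The count is therefore no measure of robustness. Cdk6 became 0.0216 under median-ratio scaling, 0.0153 under quantile scaling and 0.179 without the muscle-rich libraries, and Cxcl13 became 0.0072, 0.0013 and 0.107 there and 0.0267 with voom. With 1 replicate left out the range was -1.41 to 0.0261 for Sc5d, -1.09 to 0.0814 for Insig1, -1.69 to 0.255 for Cdh5, -0.343 to 0.0297 for Cdk4, -0.197 to 0.179 for Cdk6, -0.199 to 0.649 for Ccnd1, -0.20 to 0.338 for Rb1, -0.532 to 0.147 for Cdkn1a, -0.515 to 0.0219 for Mki67, -0.643 to 0.549 for Cxcl13 and -0.0704 to 1.67 for Ccl21a. Of 903 list medians 872 moved by less than the replicate spread and 40 changed sign, and many of these medians likewise could not move.

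The labels do not say that replicate numbers pair the samples. Deviations from group means correlated at 0.339 for combination 1 with PBS 1 and 0.265 for combination 2 with PBS 2. With only 2 PBS libraries their deviations are exact opposites, so the crossed pairs gave -0.339 and -0.265. Both values thus rest on the same PBS difference, and they cannot show whether the numbers pair the samples. With the number as a replicate block 0 genes were called in either contrast, 772 against 686 had an unadjusted p under 0.05 in the first, and Rb1 became -0.11.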

Other observations

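Schlafen genes, a family of interferon-inducible regulators of cell growth and of RNA on chromosome 11, held a pattern not described above. Slfn4 (GRCm38 chromosome 11, 83175186 to 83190216), chosen after its values were seen, was at 0.281 and 0.538 RPKM in PBS, at 0.376 and 0.472 RPKM with the antibody, at 0.457, 0.431 and 10.2 RPKM with the inhibitor, and at 9.39, 6.69 and 6.51 RPKM with the combination. All 3 combination libraries, replicate 1 included, lay above PBS, and inhibitor replicate 3 stood with them. The log2 difference was 3.14 (SE 0.93, unadjusted p = 0.00882, limma adjusted p = 1). Without inhibitor replicate 3, which adds most of the spread of this gene within a group, the limma adjusted p was 0.0203 (SE 0.23). That library lies outside the comparison, and leaving it out lowers the p by removing this spread. The lower p is therefore no support for the difference. Its neighbours Slfn1 and Slfn2 were also apart from PBS, with differences of 1.99 (SE 0.74) and 1.43 (SE 0.87), and Slfn5, Slfn8, Slfn9 and Slfn3 overlapped. Over all genes tested 4.45% stood apart on the higher side.

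Combination replicate 1 held epithelial and smooth muscle transcripts that the other 4 libraries compared held at lower levels. Wfdc2, a secreted protein of glandular epithelium, was at 24.4 RPKM there and at most 0.145 RPKM elsewhere. Epcam was at 27.8 RPKM against 1.95 to 4.27 RPKM, and Krt7 at 12.7 RPKM against 1.37 to 2.58 RPKM. Actg2, of smooth muscle, was at 29.6 RPKM against 0.153 to 4.45 RPKM. Des, which skeletal muscle also expresses, was at 538 RPKM against 13.2 to 153 RPKM, in the library with 10.3% of skeletal muscle reads.

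Reg3b, a secreted lectin of gut and pancreas, was listed at 0 in both PBS libraries and in combination replicate 1, at 10.1 and 11.9 RPKM in combination replicates 2 and 3, and at 101 and 91.9 RPKM in the antibody libraries. Combination replicates 2 and 3 were also the combination libraries with exocrine pancreas reads, 0.473% and 1.85%, whose part was not tested.

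Further lists are given beside a median of -0.05 over all genes tested. Dendritic cell genes had 9 of 12 above 0 (median 0.37), natural killer receptors 4 of 4 with 10 under the filter (median 0.78), and interferon gamma signalling 12 of 14 (median 0.48). Neutrophil genes had 7 of 10 above 0 (median 0.55), mast cell genes 4 of 7 (median 0.19) and complement genes 9 of 16 (median 0.13). Cfb, complement factor B, was at 11.6 and 31.2 RPKM in PBS and at 44, 42.4 and 45.6 RPKM in the combination. Hypoxia and glycolysis genes had 10 of 22 above 0 (median -0.0015), nuclear respiratory chain genes 8 of 22 (median -0.05), mitochondrially encoded genes 4 of 13 (median -0.17), smooth muscle and pericyte genes 7 of 14 (median -0.04), epithelial and mesothelial genes 5 of 15 (median -0.18), erythroid genes 0 of 6 (median -1.47) and genes of granulosa and steroid-making cells 0 of 5 (median -0.36).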
